A study of Drosophila melanogaster with 8 samples.

Results

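Intergenic fragments with RNA polymerase II (Pol II) signal were chosen by their measured values: GATC fragments of 100 bp or more that lay more than 1 kb from every listed gene and whose log2 ratio exceeded 1 in all 4 profiles. There were 254 such fragments among 50245 intergenic fragments of the same size and distance, and 383654 nuclear fragments in all. Merging fragments that touch gave 158 regions. The profiles come from targeted DamID, which expresses the bacterial methyltransferase Dam alone or joined to Pol II and reads out the GATC sites it has methylated. Each value compares the Dam-Pol II library with the Dam library, as a log2 ratio, over the DNA between 2 neighbouring sites. The cells were terminal tracheal cells, the branched cells that carry air to the adult Drosophila midgut. Dam was induced for 24 hours at 29 °C, and over the final 16 hours flies were fed either sucrose (Suc) or sucrose plus bacteria (Pe, described in the labels as intestinal damage).

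All 8 libraries came from w- flies that carried dSRF-GAL4, UAS-CD8GFP and tub-GAL80ts, raised at 18 °C and aged 7 days as adults. UAS-LT3-Dam was added in the 2 Dam libraries of each condition and UAS-LT3-Dam-Pol II in the 2 Dam-Pol II libraries, and each of the 4 profiles joins 1 library of each kind. The dSRF enhancer sets which cells express Dam, but DNA came from whole midguts with their attached tracheal cells, 60 per condition and replicate. More cells with Pol II at a place and more Pol II per cell cannot be told apart in such pooled tissue.

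Pol II is known to load not only at promoters but also at active enhancers, where it makes short unstable RNAs, and it can run past the end of a gene before it terminates. Genes whose transcript starts are not annotated also leave Pol II between listed genes. DamID marks GATC sites over many hours and in a window around the protein, so it does not resolve single binding sites. Which of these situations holds at a given region was not tested.

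The largest group of regions lay between mIF2, a mitochondrial translation initiation factor gene, and fkh, the gene of a forkhead transcription factor known from salivary gland and gut development. This interval of 36159 bp on 3R held 10 regions made of 19 fragments, which were 41.3% of its 46 eligible fragments. Weighted by length, these fragments stood at 1.89 in Pe replicate 1, 3.38 in Pe replicate 2, 1.74 in Suc replicate 1 and 3.07 in Suc replicate 2. Both second replicates were thus above both first replicates, and the conditions overlapped. The regions spread over 23746 bp and came as separate peaks rather than one block.

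The region at chr3R:28568878-28570482, 10494 bp from fkh, joined 4 fragments over 1604 bp and stood at 2.34, 4.34, 1.88 and 3.40 in Pe replicates 1 and 2 and Suc replicates 1 and 2. The region at chr3R:28555488-28556660, made of 3 fragments and 24316 bp from fkh, stood at 2.40, 4.32, 2.31 and 3.64 in the same order. The region at chr3R:28561343-28562275 stood at 2.05, 4.22, 2.03 and 3.65, and that at chr3R:28556914-28557749 at 2.17, 3.90, 1.94 and 3.26. In these 4 regions Pe replicate 2 was highest and Suc replicate 2 next. The single fragment at chr3R:28562409-28562647 was the third farthest of all regions from a gene, 17592 bp from mIF2, and stood at 1.09, 2.59, 2.12 and 2.93. The remaining 5 regions had means over the profiles of 1.82 to 2.23.

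The gene next to these regions that carried signal was fkh and not mIF2, although 6 of the 10 regions lay nearer to mIF2. The mean log2 ratio over fkh (chr3R:28580976-28585264) was 1.64 and 2.65 in Pe and 2.01 and 2.59 in Suc, and it was called above 0, meaning an adjusted p under 0.05, in both conditions (limma adjusted p = 0.0262 in Suc and 0.0467 in Pe). Over mIF2 it was -0.11 and 0.06 in Pe and -0.22 and 0.18 in Suc, which was not called.

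A second group lay on 3L downstream in coordinate of hry, the gene of the bHLH repressor Hairy. Between lncRNA:CR44526 and SrpRbeta, the gene of a signal recognition particle receptor subunit, 7 regions held 16 of 52 eligible fragments. Their weighted levels were 1.73 and 1.90 in Pe and 2.00 and 2.85 in Suc, so that both Pe profiles lay below both Suc profiles. Over all single fragments tested, 11.6% had that order and 27.7% the reverse. Over single member fragments the shares were 28.7% and 6.69%, so the order was more frequent among members. The region at chr3L:8698661-8700712, 2051 bp long, joined 4 fragments and stood at 1.72 and 1.51 in Pe and 1.76 and 3.0 in Suc. Its neighbour at chr3L:8696115-8697824, also of 4 fragments, stood at 1.80 and 1.90 in Pe and 2.21 and 3.08 in Suc. The Pe minus Suc difference of these 2 regions was -0.76 and -0.80 as deposited. It was -0.28 and -0.30 with quantile-normalized profiles. With each profile scaled to its median and median absolute deviation it was -0.08 and -0.02. Between hry and lncRNA:CR44526 another 2 regions had levels of 1.48 and 1.31 in Pe against 2.08 in both Suc profiles, and 1.55 and 1.23 against 1.71 and 2.27. The lncRNA itself was nearest to 8 regions, but it had too few fragments to be tested. The gene hry stood at 1.75 and 1.84 in Pe and 2.01 and 2.96 in Suc, and SrpRbeta at 1.88 and 1.46 in Pe and 1.99 and 1.59 in Suc. Both were called above 0 in both conditions (limma adjusted p = 0.0229 and 0.0216 in Suc).

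Groups of 4 regions each lay before a pair of transcription factor genes, foxo and CrebA. Here and below, "before" means at lower coordinates, since the genes were listed without strand. In the 12339 bp between tRNA:Ser-GCT-2-2 and foxo, the forkhead factor of insulin signalling, 8 of 16 eligible fragments were members, at 1.64 and 1.70 in Pe and 1.93 and 3.19 in Suc. The gene foxo had 0.65 and 0.81 in Pe and 0.56 and 1.0 in Suc and was called in Suc (limma adjusted p = 0.0297) and not in Pe. In the 3922 bp between CG43248 and CrebA, a bZIP factor gene that raises secretory pathway genes, 5 of 7 eligible fragments were members, at 1.89 and 2.11 in Pe and 1.91 and 2.74 in Suc. The member at chr3L:15534232-15534372 belonged to a run of fragments above 1 in all 4 profiles that reached into CrebA. The gene CrebA stood at 1.48 and 1.97 in Pe and 1.5 and 2.23 in Suc. It was called in both conditions (limma adjusted p = 0.0249 in Suc and 0.0458 in Pe).

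Before D, the SOX factor gene Dichaete, 3 regions stood in an interval of 40508 bp. Of these, 2 lay nearest to lncRNA:CR45887 at the other end of the interval. The region at chr3L:14165787-14166709, 8901 bp from D, joined 4 fragments at 2.51 and 3.77 in Pe and 2.70 and 3.29 in Suc, the third highest mean of all regions. D itself had 1.10 and 2.08 in Pe and 1.30 and 1.90 in Suc and was called in Suc (limma adjusted p = 0.0359). The tRNA gene tRNA:Ile-TAT-1-2 was nearest to 3 of the 5 regions in its interval with CG13898. The strongest of those 5, at chr3L:791974-793185 and 10242 bp from CG13898, stood at 2.27 and 3.79 in Pe and 2.40 and 3.37 in Suc. CG13898 lay at 0.01 and -0.11 in Pe and -0.16 and -0.13 in Suc, so the nearest gene stood near 0 there.

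Other intervals with 3 regions adjoined Pka-C1, the catalytic subunit gene of protein kinase A, IP3K1, an inositol trisphosphate kinase gene, and tej, which acts in the germline piRNA pathway. The others adjoined CG33252, Mst87F, a testis gene, and the lncRNA pair CR45447 and CR45461. On the other side of the Mst87F interval, lncRNA:CR43642 was nearest to 2 of its 3 regions. This lncRNA stood at 1.95 and 2.21 in Pe and 2.01 and 2.13 in Suc. It was called in both conditions (limma adjusted p = 0.0214 in Suc and 0.0457 in Pe). Mst87F, at -0.27 to 0.17 over the profiles, was not called, and neither was tej or Shrm across the interval from it. The 12 intervals with 3 or more regions held 51 of the 158 regions and 99 of the 254 fragments. A further 17 intervals held 2 regions and 73 held 1.

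Outside these groups, the highest mean of all belonged to a single fragment of 276 bp at chr2R:16808330-16808606, 1989 bp from lncRNA:CR44465, with 2.29 and 3.90 in Pe and 3.19 and 3.56 in Suc. The region at chr3L:6710040-6710960 lay between CG8519 and ple, the tyrosine hydroxylase gene. It joined 4 fragments at 2.79 and 3.57 in Pe and 2.75 and 2.80 in Suc. It belonged to a run of fragments above 1 in all 4 profiles that came within 1 kb of a gene. Neither CG8519, at -0.19 to -0.03 over the profiles, nor ple, at -0.15 to 0.32, was called above 0. The region at chr2R:6990707-6991125, 1551 bp from the tetraspanin gene Tsp42Ea, stood at 2.33 and 3.67 in Pe and 2.08 and 3.28 in Suc. That at chr2R:9555429-9556225 stood at 2.14 and 2.98 in Pe and 1.94 and 4.03 in Suc, and the region of 4 fragments just beside it, chr2R:9556236-9557345, at 2.07 and 1.66 in Pe and 2.33 and 3.26 in Suc. Pe replicate 2 was the highest profile in 9 of the 10 highest regions and Suc replicate 2 in 1.

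**Figure D1:**
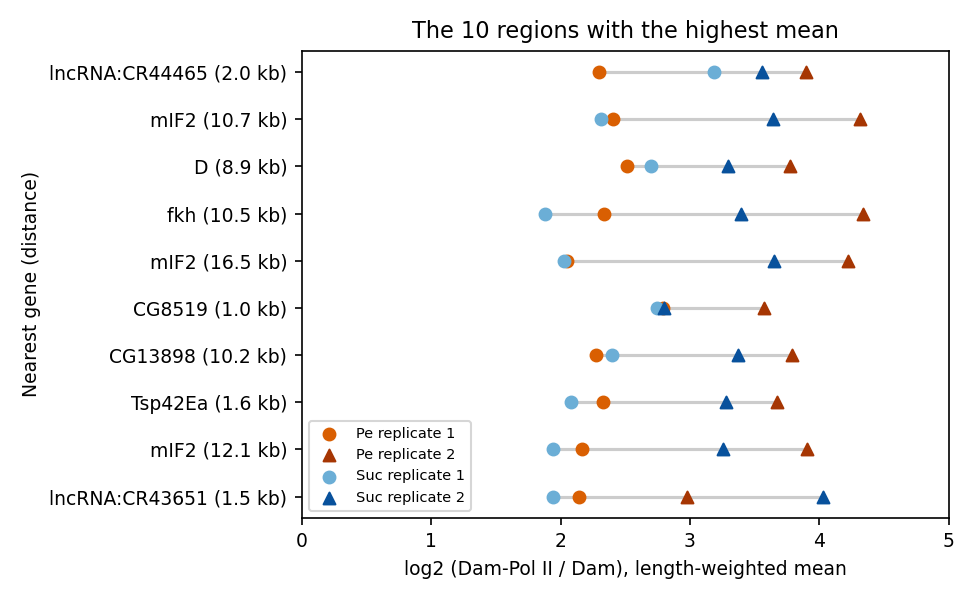
Each row is 1 of the 10 regions with the highest mean, named by its nearest gene and the distance to it in kb, and points are the log2 ratios in the 4 profiles (horizontal axis). The lowest value shown is 1.88, and 4 of the 10 rows are in the interval between mIF2 and fkh.

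Over all 158 regions the mean of the 4 profiles ran from 1.24 to 3.23 with a median of 2.01, and 80 regions exceeded 2. These levels describe the choice and are not tested, since every value had to exceed 1. Suc replicate 2 gave the highest value in 96 regions, Pe replicate 2 in 54, Suc replicate 1 in 8 and Pe replicate 1 in 0. The median region level was 1.69 and 2.02 in Pe and 1.74 and 2.63 in Suc. Regions of 1 fragment had a median mean of 1.97, and the 6 regions of 4 fragments had 2.65.

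The threshold cut through a continuous range of values. The 3 member fragments nearest above it had lowest values of 1.004, 1.005 and 1.01, at CG43248, l(3)psg2 and CG13898, and the 3 fragments nearest below it had 0.995, 0.990 and 0.990. The last 2 of these lay beside lncRNA:CR44526, among the regions of that group. Of the 50245 intergenic fragments, 49060 exceeded 1 in no profile, 456 in 1, 270 in 2, 205 in 3 and 254 in 4. On the other side of 0, 13 intergenic fragments lay below -1 in all 4 profiles. Both Suc profiles alone exceeded 1 at 85 fragments and both Pe profiles alone at 14, while the profile with most fragments above 1, Suc replicate 2 with 890, was a Suc profile. These counts hold for the profiles as deposited. They were not made over all fragments or under other scalings, so no difference between conditions is read from them.

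Members made up 0.506% of intergenic fragments. The same threshold was passed by 3.91% of fragments within 1 kb of a gene, by 5.58% of those that overlap a gene, and by 4.5% of all fragments of 100 bp or more on the 6 arms. These shares follow from the rule and are given as a description.

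The regions were short. Of the 158, 94 held 1 fragment, 38 held 2, 20 held 3 and 6 held 4, and their spans ran from 108 to 2184 bp with a median of 493.5 bp. The 6 longest began with chr2L:13098372-13100556 between 2 lncRNA genes, at 1.35 and 2.04 in Pe and 1.25 and 2.27 in Suc, and the hry group's region of 2051 bp. Next came chr2L:13092987-13094875, at 1.90 and 2.69 in Pe and 1.46 and 2.44 in Suc, and chrX:16892492-16894349 near CG13002, at 1.68 and 2.84 in Pe and 1.75 and 2.37 in Suc. The fifth was the region of 1709 bp in the hry group, given above. The only single fragment among these 6 was chr2L:427267-428931, 1664 bp between BBS8 and the Hippo pathway gene ex, with 1.33 and 1.52 in Pe and 1.42 and 1.70 in Suc. In total the regions covered 99.95 kb, or 0.370% of the intergenic sequence measured.

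Many neighbouring regions were parted by little. Of 56 gaps between neighbours in the same interval, 17 were under 100 bp and 41 under 1 kb. Of the 316 fragments that touch a region, 114 also exceeded 1 in all 4 profiles, and 90 of these were left out because they are shorter than 100 bp and 26 because a gene lies within 1 kb, 2 of them for both reasons. When runs of signal were followed through such fragments, 126 of the 158 regions belonged to runs that stayed more than 1 kb from every gene. In 21 regions the run came within 1 kb of a gene and in 11 it reached into one.

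Levels around the regions were lower with distance. Intergenic fragments within 0.5 kb of a region averaged 0.77 and 1.04 in Pe and 0.66 and 1.32 in Suc, and those 1 to 2 kb away averaged 0.19 and 0.26 in Pe and 0.08 and 0.25 in Suc. At 5 to 10 kb the averages were 0.005 and 0.081 in Pe and -0.103 and 0.006 in Suc. Over all intergenic fragments of 100 bp or more that are not members they were -0.019 and 0.003 in Pe and -0.046 and -0.057 in Suc. In or near genes the level stayed higher, at 0.361 and 0.453 in Pe and 0.305 and 0.577 in Suc at 5 to 10 kb. Neighbouring fragments come from the same libraries and may share reads, so these averages are a description without a test.

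**Figure D2:**
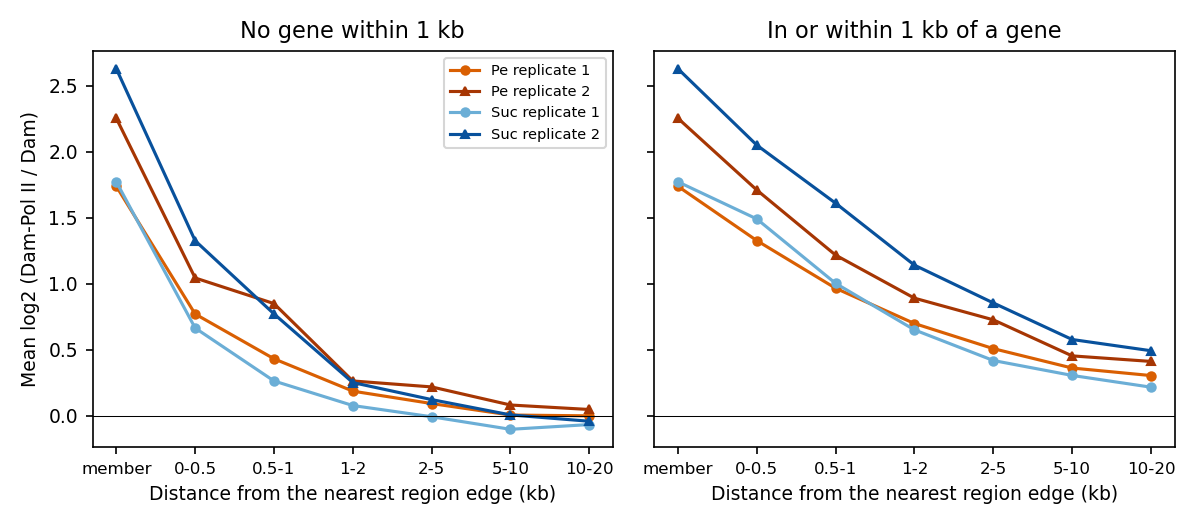
The mean log2 ratio weighted by fragment length (vertical axis) is drawn for member fragments and for fragments in bins of distance in kb from the nearest region edge (horizontal axis), with 1 line per profile. Fragments with no gene within 1 kb (left, those shorter than 100 bp included) come down to between -0.103 and 0.081 at 5 to 10 kb. Fragments in or near genes (right) come down to between 0.305 and 0.577.

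Regions lay close to genes within the limit set by the rule. Their median distance to the nearest listed gene was 1983.5 bp, 80 lay 1 to 2 kb from it, 41 at 5 kb or more and 19 at 10 kb or more. The share of intergenic fragments that were members was 1.63% at 1 to 2 kb, 0.540% at 2 to 5 kb, 0.351% at 5 to 10 kb, 0.461% at 10 to 20 kb and 0.0224% beyond 20 kb. The order of the shares was not steady, and 8 of the 19 regions at 10 kb or more lay in the interval before fkh. Fragments listed at 0 in all 4 profiles were 5.73% at 1 to 2 kb and 41.3% beyond 20 kb. Their part in these shares was not tested.

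The 3 regions farthest from a gene began with chr2R:4270304-4271844, 27370 bp from IntS3, an Integrator subunit gene. It joined 3 fragments at 1.56 and 1.80 in Pe and 1.47 and 2.45 in Suc. The next was chr2L:1461711-1462474, 17879 bp from CG43402, at 1.83 and 2.09 in Pe and 1.37 and 2.43 in Suc, and the third was the fragment before fkh described above. IntS3 stood at -0.23 to -0.10 and CG43402 at -0.11 to -0.01 over the profiles.

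By chromosome arm, the share of intergenic fragments that were members was 0.644% on 2L, 0.338% on 2R, 0.517% on 3L, 0.608% on 3R and 0.478% on X. On chromosome 4, 0 of 293 intergenic fragments were members. In the last 1 Mb of the assembled arms next to the centromere there was 1 member among 6925 intergenic fragments, and at 1 to 2 Mb there were 2 among 5110, while beyond 10 Mb the share was 0.996%. Fragments listed at 0 in all 4 profiles were 45.8% of the intergenic fragments in the last 1 Mb and 8.88% beyond 10 Mb, and their part in this pattern was not tested.

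**Figure D3:**
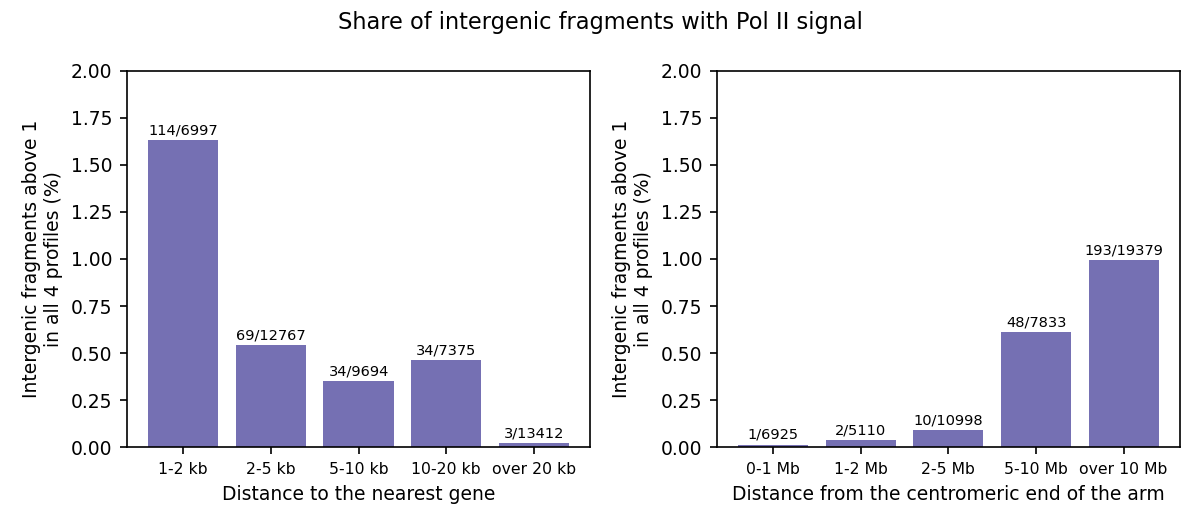
Bars give the percentage of intergenic fragments that exceed 1 in all 4 profiles, by distance to the nearest gene in kb (left) and by distance in Mb from the centromeric end of the assembled arm (right), with members over intergenic fragments above each bar. The share is 1.63% at 1 to 2 kb from a gene and 0.996% beyond 10 Mb from the centromeric end.

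Member fragments had a median length of 336.5 bp against 369 bp for all intergenic fragments. The share of members was 0.371% among fragments of 100 to 199 bp, 0.742% at 200 to 399 bp, 0.618% at 400 to 799 bp, 0.170% at 800 to 1599 bp and 0.0499% at 1600 bp or more. The nearest gene was protein coding for 109 regions, a lncRNA for 43, a tRNA for 4, an antisense RNA for 1 and a miRNA for 1. Nearest lncRNA genes accounted for 28.7% of member fragments and 21.4% of all intergenic fragments.

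The rule did not use the values of the genes nearest to the regions, but these values come from the same profiles. They are also close to the chosen signal: 11 regions lay in runs that reached into a gene and 21 in runs that came within 1 kb of one. Fragments in or near genes at 1 to 2 kb from a region averaged 0.70 and 0.89 in Pe and 0.65 and 1.14 in Suc. The part of this nearness in the shares below was not tested. Of 118 distinct nearest genes, 99 could be tested, and 35 of them, 35.4%, were called above 0 in Suc in the one-sided limma test, where 21.3% of all 13987 genes were called. In Pe 17, or 17.2%, were called against 7.55% of all genes. The order of the conditions turned under other settings: with quantile-normalized profiles Pe had 54 calls and Suc 46 (31.5% and 29.9% of all genes), and with a replicate block 47 and 44 (23.5% and 28.7%). With each profile scaled to its median and median absolute deviation the counts were 42 in Pe and 23 in Suc (22.1% and 13.4%). Among genes nearest to any intergenic fragment the shares were 10.4% in Suc and 3.48% in Pe. The median level of the 99 was 0.26 in Suc and 0.42 in Pe, beside 0.04 and 0.07 over all genes. The calls, at these genes and over all genes, were lost when either Pe profile was left out. They changed when either Suc profile was left out. Such fits leave 1 profile in a condition, so their counts are not given.

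Called genes with high levels included CAH1, a carbonic anhydrase gene, at 1.89 and 2.04 in Pe and 2.31 and 3.21 in Suc, and Gs2, a glutamine synthetase gene, at 1.80 and 1.85 in Pe and 2.08 and 2.89 in Suc. SecCl, a ligand-gated chloride channel gene, stood at 2.23 and 3.36 in Pe and 1.93 and 3.01 in Suc, and Gadd45, a stress response gene, at 1.36 and 1.92 in Pe and 1.95 and 2.60 in Suc. These 4 genes were named after their values were seen. At the other end, 28 of the 99 nearest genes had a mean below 0, among them mIF2, CG13898, CG8519, IntS3 and l(3)psg2. Of 102 intervals with a region, 95 had a flanking gene that could be tested, and in 45 of these at least 1 flanking gene was called in Suc, which is 47.4% against 14.4% of all intergenic intervals. In the other 50 no flanking gene was called. The flanking genes, too, were measured in the profiles that chose the regions, and the part of nearness in their share was not tested.

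Among the gene lists, 17 regions were flanked by a developmental transcription factor gene, 10 by fkh, 3 by D, 2 by the T-box gene mid, 1 by the T-box gene Doc2 and 1 by the Pax genes toe and eyg. The 10 beside fkh share 1 interval. The share of all intergenic intervals flanked by a listed factor was not counted, so no association is read from these counts. The list does not hold hry, foxo or CrebA, named above. Of the 111 listed factors tested, 11 were called above 0 in Suc and 5 in Pe, where 21.3% and 7.55% of all genes were called. The region beside toe stood at 1.29 and 1.60 in Pe and 1.41 and 3.46 in Suc. Of 34 tested signalling genes 1, the FGF receptor gene htl, flanked a region, and of 86 ribosomal protein genes 1, RpS7. None of the listed tracheal, enterocyte, enteroendocrine, stem cell, muscle, haemocyte, fat body or neuron markers was nearest to a region or flanked one. Only 99 of all 13987 genes tested were nearest to a region, so lists this short would hold few or none by their size alone.

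The marker lists describe the cells behind the profiles, and their counts stand beside 21.3% of all genes called in Suc and 7.55% in Pe. Of 18 tracheal genes 6 were called above 0 in Suc and 1 in Pe, with list means of 0.31 and -0.03 in Pe and 0.41 and 0.67 in Suc. Of 13 enterocyte genes 9 were called in Suc and 4 in Pe, with list means of 0.84 and 0.81 in Pe and 1.32 and 1.37 in Suc. The means of enteroendocrine, haemocyte, fat body and neuron markers lay between -0.11 and 0.08 in every profile, and 0 of their genes were called. Visceral muscle markers had means of 0.00 and 0.30 in Pe and 0.30 and 0.22 in Suc, with 2 of 8 called in Suc and 0 in Pe. Stem cell and enteroblast markers had 0.03 and 0.09 in Pe and 0.21 and 0.20 in Suc, with 1 of 4 called in Suc and 0 in Pe. The part of gut cells in the intergenic signal was not tested.

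No difference between Pe and Suc was called at any region's fragments. In the two-sided limma test 0 of 254 member fragments and 0 of 233383 fragments, 0.0%, had an adjusted p under 0.05, and the smallest adjusted p was 0.710. At an unadjusted limma p under 0.05 there were 15 member fragments, 2 higher and 13 lower in Pe, which is 5.91% where all fragments gave 6.96%, with 4.91% higher and 2.04% lower in Pe. That count and its direction depended on the setting: it was 43 (32 higher, 11 lower; 16.9% against 5.79% of all fragments) with quantile-normalized profiles and 31 (13 higher, 18 lower; 12.2% against 8.38%) with a replicate block. With each profile scaled to its median and median absolute deviation (MAD) it was 26, all higher (10.2% against 5.14%). The median difference of member fragments was -0.256 with all 4 profiles. It was -0.018 without Pe replicate 1 and -0.449 without Pe replicate 2. Without Suc replicate 1 it was -0.597 and without Suc replicate 2 it was 0.119. In simulated profiles the fragment test called none of the planted differences, so the absence of calls does not show that the conditions were alike. Both Pe profiles lay below both Suc profiles at 73 member fragments, 28.7%, and above at 17, 6.69%, while over all fragments the shares were 11.6% and 27.7%. With quantile-normalized profiles 79 member fragments, 31.1%, had both Pe profiles above and 28, 11.0%, below, where all fragments gave 18.7% and 16.5%. With MAD scaling there were 74, 29.1%, above and 4, 1.57%, below, where all fragments gave 21.5% and 13.8%, so the direction depended on the scaling. The median difference of the 158 regions was -0.24 as deposited, 0.20 with the former and 0.47 with the latter.

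**Figure D4:**
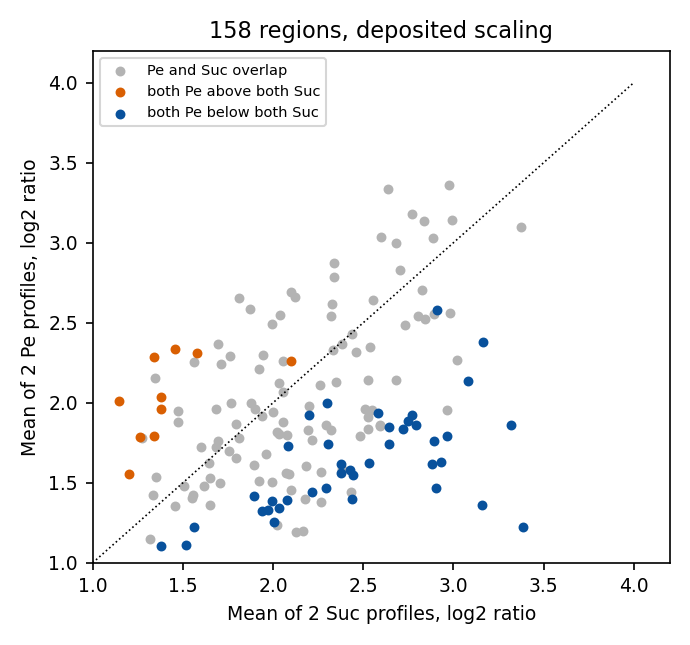
Each point is 1 of 158 regions, with the mean log2 ratio of the 2 Suc profiles on the horizontal axis and of the 2 Pe profiles on the vertical axis, both as deposited. Orange marks the 10 regions whose 2 Pe values exceed both Suc values, blue the 40 with the reverse order and grey the 108 that overlap; the dotted line marks equal levels.

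Among the 40 regions with both Pe values below both Suc values, the largest difference was at chr3R:7009149-7009801, 7726 bp from lncRNA:CR45899. This single fragment stood at 1.37 and 1.08 in Pe and 2.46 and 4.32 in Suc, a difference of -2.17 (SE 0.94). The fragment at chr3L:5581576-5581787 near l(3)psg2 stood at 1.37 and 1.35 in Pe and 2.25 and 4.08 in Suc, a difference of -1.80 (SE 0.92). The region at chrX:11420732-11421185, 1647 bp from Gs2, stood at 2.45 and 1.27 in Pe and 2.57 and 4.07 in Suc (-1.46, SE 0.96), and the fragment at chr2L:11950209-11950402 near CG16964 at 1.05 and 1.89 in Pe and 1.90 and 3.90 in Suc (-1.43, SE 1.09). In all 4 Suc replicate 2 was far above the other profiles, and without it the differences were -1.24, -0.89, -0.71 and -0.43. Of the nearest genes, Gs2 was at 1.8 and 1.85 in Pe and 2.08 and 2.89 in Suc. The gene l(3)psg2 went the other way, at -0.21 and -0.16 in Pe and -0.4 and -0.3 in Suc. Neither lncRNA:CR45899 nor CG16964 could be tested.

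Among the 10 regions with both Pe values above both Suc values, the largest difference was at chr2L:5440368-5440857 near lncRNA:CR31647. It stood at 1.72 and 2.85 in Pe and 1.27 and 1.41 in Suc, a difference of 0.94 (SE 0.57). The next region in the same run of signal, chr2L:5440888-5441108, went the other way. It stood at 1.38 and 3.16 in Pe and 2.20 and 3.85 in Suc, a difference of -0.75. The fragment at chr3R:22564359-22564699 near sit stood at 1.88 and 2.80 in Pe and 1.52 and 1.39 in Suc (0.89, SE 0.47). The fragment at chr3R:6233215-6233678 lay 1030 bp from Osi6, an Osiris family gene, and stood at 1.83 and 2.19 in Pe and 1.03 and 1.26 in Suc (0.86, SE 0.21). Osi6 itself was at 0.21 and 0.81 in Pe and -0.49 and -0.17 in Suc, a difference that was not called (limma adjusted p = 0.896). The gene sit was at -0.12 and -0.15 in Pe and -0.32 and -0.3 in Suc. In contrast, lncRNA:CR31647 was at 0.3 and 0.69 in Pe and 0.39 and 0.93 in Suc. The fragment at chr3L:14142074-14142451 lay in the interval before D, nearest to lncRNA:CR45887. It stood at 1.97 and 2.65 in Pe and 1.75 and 1.41 in Suc (0.73, SE 0.38). That lncRNA was at 0.14 and 0.47 in Pe and -0.18 and -0.08 in Suc. Without Pe replicate 2 the differences of the 4 regions picked were 0.38, 0.42, 0.68 and 0.39. Because these 8 regions were picked for groups that do not overlap, their direction is fixed by the choice, and an exact permutation test of 2 against 2 profiles cannot give a two-sided p below 0.333.

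At the nearest genes, too, no difference between conditions was called. Of the 99 tested, 0 passed in the two-sided limma test (smallest adjusted p = 0.896), where 0.0% of all genes were called, and 7 had an unadjusted limma p under 0.05 against 3.94% of all genes. Their median difference was 0.04, beside 0.02 over all genes.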

How the data were processed

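The authors deposited 4 profiles, each giving for every GATC fragment the log2 ratio between a Dam-Pol II and a Dam library. The log scale was read from the values. The sources used here do not give the log base, the aligner or the scaling, and the build is BDGP 6 per the submitters' processing notes. One Suc profile carries the track number 3 and is called Suc replicate 2 here, as in the labels. The files hold no counts, so depth is unknown and precision rests on 2 profiles per condition, called biological replicates in the series text.

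Genes came from a RefSeq table of Release 6 without strand or exons. Of its genes, 11 had no coordinates, and 2 regions lay between the table neighbours of such a gene. Fragment ends, region ends and distances are as the files list them, and region levels are weighted by fragment length. Fragments listed at 0 in all profiles were left out of tests. Gene levels are means over overlapping fragments, for coding and lncRNA genes with 3 or more. Limma 3.58.1 in R 4.3.3 was fitted over all 233383 fragments and over all 13987 genes, with 1 spread shared by both conditions, a prior variance trended on fragment length or number, and Benjamini-Hochberg adjustment at 0.05. The SE of a region's difference comes from its own 4 values. The fits were tested on simulated profiles: the gene test called all raised genes, while the fragment test estimated the planted differences but called none. Whether the gene test would also call genes with the levels and replicate spread of the measured profiles was not tested.

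Regions named are the 10 with the highest mean, the 6 with most fragments, the 6 longest, the 4 largest differences per direction without overlap, the 3 farthest from a gene, and those beside genes nearest to 3 or more regions. The members and lists were chosen with earlier results of these data known. Alternatives changed the threshold, gene extension, minimum length, gene types, merging, scaling, prior variance, replicate block and profiles used. Python 3.11.15, numpy 2.4.6 and pandas 2.3.3 were used.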

Additional observations from a re-analysis of the deposited data

How the results depend on the processing

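The number of regions depended on the limits of the rule. A threshold of 0.5 gave 518 fragments in 300 regions and 1.5 gave 110 in 78. Genes extended by 0 kb gave 715 in 489, by 2 kb 140 in 85 with a median distance of 4550 bp, and by 5 kb 71 in 41 with 9088 bp. Barring only protein coding genes gave 481 in 279. Without any 1 profile there were 266 to 352 fragments.

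Nearest genes called in Pe numbered 54 after quantile normalization (31.5% of all genes called), 42 under median and MAD scaling (22.1%; 23 in Suc, 13.4%), 11 with genes of 1 or more fragments (5.13%), and 47 with a replicate block (23.5%). Without any 1 profile they were 0 to 40 in Pe and 0 to 40 in Suc. The median difference of regions, -0.24, was 0.47 under median and MAD scaling and -0.53 to 0.13 without 1 profile. No setting called a fragment, the replicate block included (0). Deviations of equal replicate numbers correlated at 0.178 over all fragments tested, and the labels do not say that a number marks a shared batch. Leaving out 2 regions beside genes without coordinates, chosen after seeing the data, gave 156 regions. The causes were not tested.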
